A study of Homo sapiens with 6 samples.

Results

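The early growth response factors EGR1, EGR2, EGR3 and EGR4 and their corepressors NAB1 and NAB2 were followed in cultured A2780, an established line from a human ovarian tumour, with 3 GPT2si and 3 GPT2sinc libraries. The 6 genes were found by symbol among 60564 rows of Ensembl identifiers, and all 6 were among the 17006 genes that passed the filter on low counts. They were chosen by their fold changes between these same GPT2si and GPT2sinc libraries, with EGR1 and EGR3 known to differ, so their differences are descriptions, without a test of their own. The samples are 1 line in 2 groups named by genotype, GPT2si and GPT2sinc, both poly(A)-selected RNA. GPT2 is the mitochondrial alanine aminotransferase that the series title names as deficient. The labels do not spell out si and sinc, and neither agent, dose, time nor separate cultures are named in the labels. Every p-value therefore measures how far these libraries scatter, which may be technical only.

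EGR proteins are zinc finger transcription factors that bind GC-rich DNA. They are immediate early genes: growth factor signals act through the ERK kinases on Ets factors and the serum response factor SRF, which sits on CArG boxes in their promoters, and a transcript appears without new protein synthesis and decays quickly. NAB1 and NAB2 have no DNA-binding domain of their own. They dock on a short inhibitory domain of EGR1, EGR2 and EGR3 and repress, in part through the chromatin remodeller CHD4. NAB2 is itself a target of EGR factors, which makes it a negative feedback arm.

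The promoters are shown because they hold the letters through which SRF, CREB-type and EGR factors are known to bind. RefSeq windows (GRCh38.p14, 250 bases before to 50 after an annotated start) were found for 5 of the 6 genes, EGR3 being the one without an entry. The 250 bases before the start are printed 5′ to 3′ on the strand of the gene for 1 window of each, which for EGR2 is the last in the table of its 3 annotated starts and for NAB1 the first of 3. Capitals mark matches to the CArG box, to GCGNGGGCG (the EGR site) and to TGACGT (the core of a cyclic AMP response element), each searched on both strands.
EGR1, chr5:138465229-138465478, plus strand: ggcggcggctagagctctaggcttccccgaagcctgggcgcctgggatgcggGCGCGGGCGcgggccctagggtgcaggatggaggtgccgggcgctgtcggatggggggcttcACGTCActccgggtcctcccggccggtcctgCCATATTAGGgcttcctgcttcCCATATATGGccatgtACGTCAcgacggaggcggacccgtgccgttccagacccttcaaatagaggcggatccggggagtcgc
EGR2, chr10:62816367-62816616, minus strand: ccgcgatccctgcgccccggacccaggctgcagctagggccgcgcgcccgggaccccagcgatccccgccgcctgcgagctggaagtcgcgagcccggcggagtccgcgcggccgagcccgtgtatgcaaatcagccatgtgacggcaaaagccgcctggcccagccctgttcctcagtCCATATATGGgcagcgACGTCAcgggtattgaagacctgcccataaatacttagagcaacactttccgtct
EGR4, chr2:73293549-73293798, minus strand: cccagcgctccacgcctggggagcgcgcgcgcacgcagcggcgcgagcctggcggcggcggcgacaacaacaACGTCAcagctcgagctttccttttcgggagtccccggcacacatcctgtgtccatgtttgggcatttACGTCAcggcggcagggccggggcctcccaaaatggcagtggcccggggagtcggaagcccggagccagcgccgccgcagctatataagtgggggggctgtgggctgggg
NAB1, chr2:190648645-190648894, plus strand: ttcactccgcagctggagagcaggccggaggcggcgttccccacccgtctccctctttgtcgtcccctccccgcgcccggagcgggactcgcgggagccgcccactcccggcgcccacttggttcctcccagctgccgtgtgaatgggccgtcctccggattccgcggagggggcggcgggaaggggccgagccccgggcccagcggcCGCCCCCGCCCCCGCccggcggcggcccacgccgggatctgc
NAB2, chr12:57088864-57089113, plus strand: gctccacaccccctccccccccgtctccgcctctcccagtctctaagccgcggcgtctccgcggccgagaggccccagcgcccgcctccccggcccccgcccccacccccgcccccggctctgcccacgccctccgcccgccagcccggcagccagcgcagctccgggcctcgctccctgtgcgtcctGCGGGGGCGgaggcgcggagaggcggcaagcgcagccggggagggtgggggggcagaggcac
A CArG box was found in 1.3% of 34943 promoter windows of the same length. EGR1 held 2, CCATATTAGG and CCATATATGG, beginning 105 and 83 bases before the start, and EGR2 held the letters CCATATATGG beginning 71 bases before the start printed here. The windows of the other 2 EGR2 starts held 0 CArG boxes and 0 TGACGT cores. A TGACGT core occurred in 7.97% of windows. EGR1 and EGR4 held 2 each, the printed EGR2 window held 1, beginning 55 bases before the start, and the window of NAB1 start 3 held 1, 200 bases before it. In EGR1 and EGR2 a core lay just downstream of a CArG box. The EGR site GCGNGGGCG occurred in 9.41% of windows. It was matched once in EGR1, 198 bases before the start, once in NAB2 as GCGGGGGCG, 62 bases before the start, and once after EGR2 start 2. The window of the first NAB1 start held 3 matches, of which the pair at 42 and 36 bases before the start overlap and the other lies after the start. The window of its second start shares part of that DNA and held 4 matches. Those at 230, 224 and 175 bases before start 2 repeat the matches of the first window. The match CGCCCGCGC, after start 2, is not in the first window. No CArG box was matched in the EGR4, NAB1 and NAB2 windows. A match describes letters only, and these data hold no measurement of binding.

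**Figure D1:**
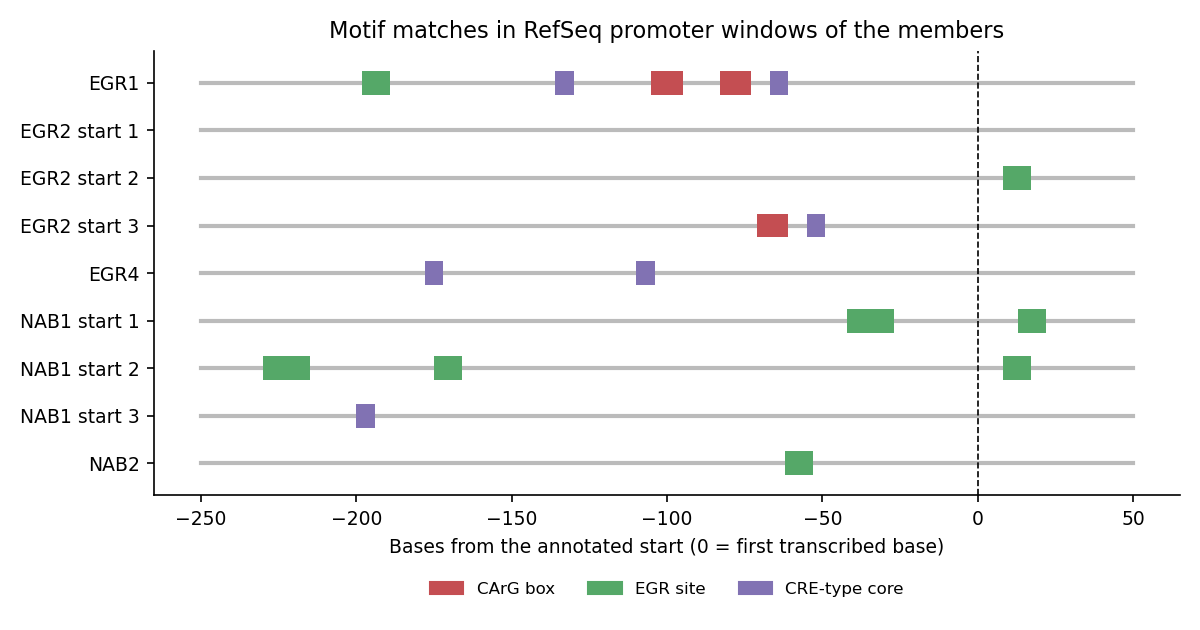
Motif matches in the 9 RefSeq promoter windows of 5 member genes, by distance in bases from the annotated start (dashed line); boxes are matches to the CArG box (red), the EGR site (green) and the CRE-type core (purple). CArG boxes lie 105 and 83 bases before the EGR1 start and 71 bases before EGR2 start 3.

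The libraries held 41931162 to 50882329 counts in total. GPT2, the gene named in the labels, was called lower in GPT2si (228 ± 8.59 against 95.0 ± 1.69 CPM, read counts relative to library totals scaled by TMM factors; SD, n = 3), at 41.7% of the GPT2sinc mean and without overlap. GPT2si 2 stood apart, with a chi-square per degree of freedom of 35.9 to 85.2 against the other 5 libraries, where the 10 other pairs gave 7.49 to 40.3. Where leaving it out moved a printed log2 fold change of a gene by over 1.5 times, the value without it is given beside that gene. Among epithelial markers KRT8 averaged 31.7 CPM in GPT2sinc, whereas EPCAM was at 1.94, CDH1 at 0.19 and PAX8 at 0.176 CPM, so CDH1 and PAX8, which define many epithelial ovarian tumours, were near 0. Of 6 fibroblast-type genes 0 passed the edgeR test in either direction, and their summed level was 526 to 548 CPM in GPT2sinc and 530 to 570 CPM in GPT2si. For 6 epithelial markers, of which 4 were tested and 0 passed, the sums were 57.6 to 60.4 and 64.8 to 80.8 CPM, and their part in the results was not tested. Markers of endothelium summed to at most 0.334 CPM in any library, with CDH5 at 0 in all 6. The 5 markers of Schwann cells, the glia in which EGR2 drives myelination, summed to 9.05 to 9.97 CPM in GPT2sinc and to 10.3 to 12.7 CPM in GPT2si, with 4 of 5 under 1 CPM and SOX10 at 0 in all 6 libraries. Nearly all of that sum was MBP, the myelin basic protein gene, at 8.57 ± 0.354 against 11.3 ± 1.30 CPM without overlap (log2 fold change 0.40, SE 0.14, adjusted p = 0.158, edgeR), and its part in the results was not tested. In bulk RNA, fewer cells with a transcript and less transcript per cell cannot be told apart.

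EGR1, the founding member and the main growth factor responsive one, had 1799, 1961 and 1991 counts in GPT2sinc 1 to 3 and 4113, 3284 and 3266 in GPT2si 1 to 3. That is 39.2, 42.2 and 45.8 CPM against 81.8, 84.3 and 71.7 CPM. Each GPT2si library lay above each GPT2sinc library, and the smallest gap between the groups, from GPT2sinc 3 to GPT2si 3, was wider than the spread inside either group. The log2 fold change was 0.90 (SE 0.10), a ratio of means of 1.87, larger than that of 99.0% of tested genes. The library that stands apart, GPT2si 2, had the highest EGR1 level, and without it the log2 fold change was 0.84.

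EGR3, known from muscle spindle development and T cell anergy and itself induced by EGR1, was a weak transcript with the largest proportional difference of the family. It had 67, 65 and 60 counts in GPT2sinc 1 to 3 and 153, 118 and 172 in GPT2si 1 to 3. In CPM these were 1.46, 1.40 and 1.38 against 3.04, 3.03 and 3.78. The GPT2sinc libraries were almost level, GPT2si 3 was the highest, and the groups did not overlap. The log2 fold change was 1.21 (SE 0.18) and the ratio of means 2.32. Unlike EGR1, it was not highest in GPT2si 2, without which its log2 fold change was 1.25.

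EGR2, the factor of hindbrain segments and of myelination, had 78, 65 and 55 counts in GPT2sinc and 96, 71 and 101 in GPT2si. Scaled, it lay at 1.70, 1.40 and 1.26 CPM against 1.91, 1.82 and 2.22 CPM. The groups did not overlap, but GPT2sinc 1 lay close under GPT2si 2, and the log2 fold change of 0.45 had an SE of 0.21. EGR4, a factor of neurons and of the male germ line, was the weakest member, with 14, 21 and 14 counts against 33, 23 and 24. In CPM it was at 0.305, 0.452 and 0.322 in GPT2sinc and at 0.656, 0.590 and 0.527 in GPT2si, again without overlap. Its log2 fold change of 0.71 had an SE of 0.34, and at this depth the counting error of such a gene is large.

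NAB2, the feedback corepressor, was the most abundant member and differed little. Its counts were 5661, 6026 and 5626 in GPT2sinc and 6780, 6080 and 5849 in GPT2si, or 123.4, 129.7 and 129.3 against 134.8, 156.0 and 128.4 CPM. GPT2si 3 lay inside the GPT2sinc range, so the groups overlapped, and GPT2si 2 was the highest library. The log2 fold change was 0.13 (SE 0.09), and 0.03 without GPT2si 2. NAB1, the other corepressor, had 765, 652 and 558 counts in GPT2sinc and 644, 336 and 708 in GPT2si, or 16.7, 14.0 and 12.8 against 12.8, 8.62 and 15.5 CPM. GPT2si 2 was the lowest library and the other GPT2si libraries lay within or at the edge of the GPT2sinc range. The log2 fold change was −0.23 (SE 0.20), and −0.05 without GPT2si 2. With GC and length trends of single libraries removed it was −0.14, and the longest NAB1 transcript has 39.9% GC against 62.6% for NAB2.

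**Figure D2:**
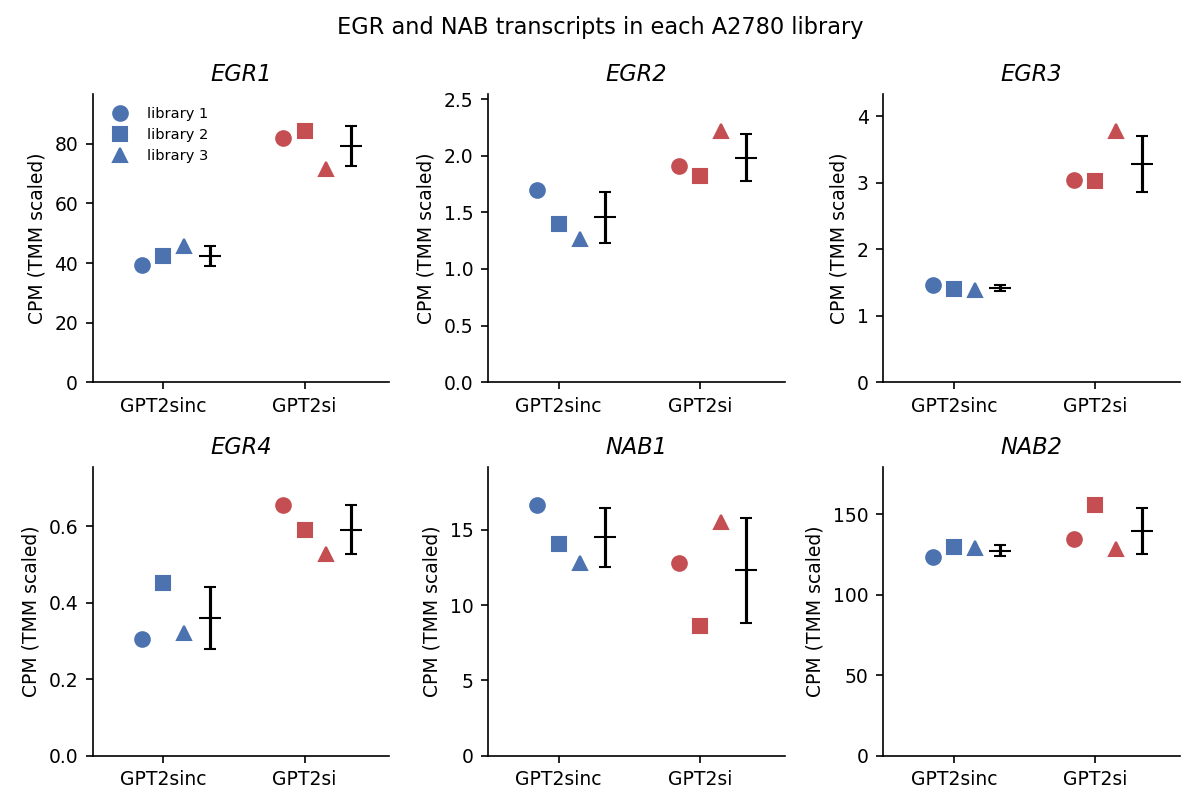
Level of each member in CPM scaled by TMM factors (y axis, from 0), by group; symbols are the 3 libraries of a group and the bars the mean ± SD (n = 3). For EGR1 to EGR4 the GPT2si libraries all lie above the GPT2sinc libraries, while for NAB1 and NAB2 the groups overlap.

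In the fit over all genes (edgeR quasi-likelihood test, Benjamini-Hochberg adjusted p under 0.05), EGR1 (adjusted p = 0.0115) and EGR3 (adjusted p = 0.0230) were among the genes called higher. That is 2 of 6 members, where 0.576% of all tested genes were called higher. Called lower were 0 of 6, against 0.841% of all genes; 0 members were lower at an unadjusted p under 0.05, by DESeq2 or by limma-voom. The adjusted p was 0.275 for EGR2, 0.281 for EGR4, 0.455 for NAB2 and 0.552 for NAB1. Groups did not overlap, with GPT2si higher, in 4 of 6 members, against 14.9% of tested genes, and with GPT2si lower in 0 members, against 13.2%. Since the genes were chosen with this contrast known, nothing is read from these shares. EGR3 was lost with no filter on low counts (adjusted p = 0.0504). EGR1 and EGR3 were both past the threshold without GPT2si 2 (adjusted p = 0.00471 and 0.0158). EGR1 alone was past it without GPT2si 3, and neither was past it when GPT2si 1 or any GPT2sinc library was left out (adjusted p from 0.0516 to 0.141). Those last fits called only 0 to 3 genes higher and 1 to 4 lower over the whole set, against 98 and 143 with all libraries. The loss of calls was thus not particular to these members. The log2 fold changes themselves moved little, from 0.84 to 0.97 for EGR1 and from 1.10 to 1.26 for EGR3 over all 14 alternatives.

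**Figure D3:**
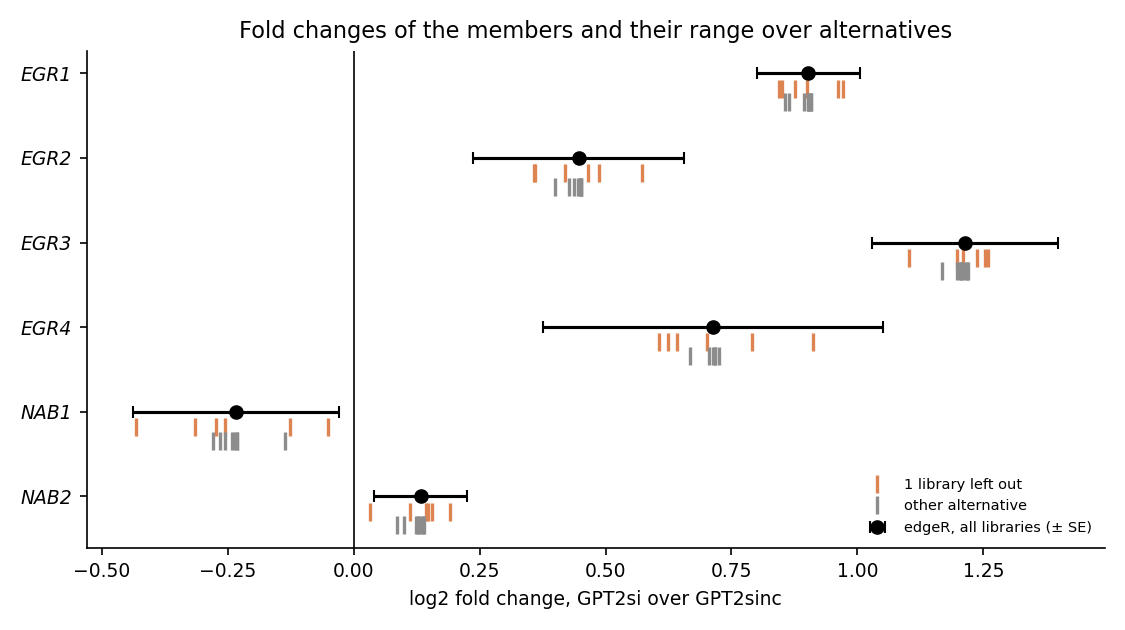
Log2 fold change of GPT2si over GPT2sinc for each member; black points are the edgeR values with all 6 libraries ± SE, orange ticks the values with 1 library left out and grey ticks those of the other alternatives. EGR1 and EGR3 stay at 0.84 or higher throughout, and NAB1 runs from −0.43 to −0.05.

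Exons of 3 members overlap those of genes on the other strand. NAB2 (chromosome 12, 57088894 to 57095476, plus strand, GRCh38 in GENCODE 29) overlaps the convergent gene STAT6 by 69 exon bases, 2.29% of the NAB2 exon length. STAT6 had 9677 to 10932 counts, overlapping groups and a log2 fold change of 0.09 (SE 0.09), or 0.0020 without GPT2si 2. The library kit keeps strand, but how the counting used it is unknown here, so reads of those bases cannot be told apart. NAB1 (chromosome 2, 190646746 to 190692766, plus strand) overlaps 2 noncoding genes by 10 and 186 exon bases. One of these, ENSG00000284052, had 0 to 27 counts, a log2 fold change of 0.37 (SE 0.84) and −0.07 without GPT2si 2, and the other, ENSG00000228509, had 0 in every library. The antisense ENSG00000253125, which overlaps EGR3 (chromosome 8, 22687659 to 22693302, minus strand), had 0 in every library too. EGR1 (chromosome 5, 138465490 to 138469315, plus strand), EGR2 (chromosome 10, 62811996 to 62919900, minus strand) and EGR4 (chromosome 2, 73290929 to 73293705, minus strand) overlap 0 annotated genes.

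Per length of exon, in CPM per kb, the 6 genes spanned more than 2 orders of magnitude. In GPT2sinc the levels were 42.3 ± 1.17 for NAB2, 13.5 ± 1.04 for EGR1, 2.97 ± 0.403 for NAB1, 0.394 ± 0.0605 for EGR2, 0.291 ± 0.00875 for EGR3 and 0.151 ± 0.0338 for EGR4 (SD, n = 3). No library of one gene reached the range of the next in that order. In GPT2si the order was the same except that EGR3, at 0.676 ± 0.088, lay above EGR2, at 0.537 ± 0.0563. The ranges of this pair did not overlap per exon length (0.624 to 0.778 against 0.494 to 0.601), but per length of the longest transcript they did (0.698 to 0.871 against 0.614 to 0.747), so their order in GPT2si is not resolved. EGR1 made up 93.4% to 95.0% of the summed EGR level in the GPT2sinc libraries and 93.5% to 95.2% in the GPT2si libraries. EGR transcript in these cells was thus almost wholly EGR1 in both groups.

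The balance of factor to corepressor transcripts followed from these levels. Summed EGR level was 13.4, 14.3 and 15.3 CPM per kb in GPT2sinc 1 to 3 and 27.5, 28.2 and 24.4 in GPT2si 1 to 3. Summed NAB level was 44.4, 46.0 and 45.6 against 47.4, 53.6 and 45.8 CPM per kb, with GPT2si 3 inside the GPT2sinc range. NAB transcript exceeded EGR transcript in each of the 6 libraries, by 2.97 to 3.32 times in GPT2sinc and by 1.73 to 1.90 times in GPT2si. This ratio is built from the values that chose the members and is a description. NAB2 supplied 92.3% to 94.2% of NAB level in GPT2sinc and 93.1% to 96.7% in GPT2si, the highest share being that of GPT2si 2.

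**Figure D4:**
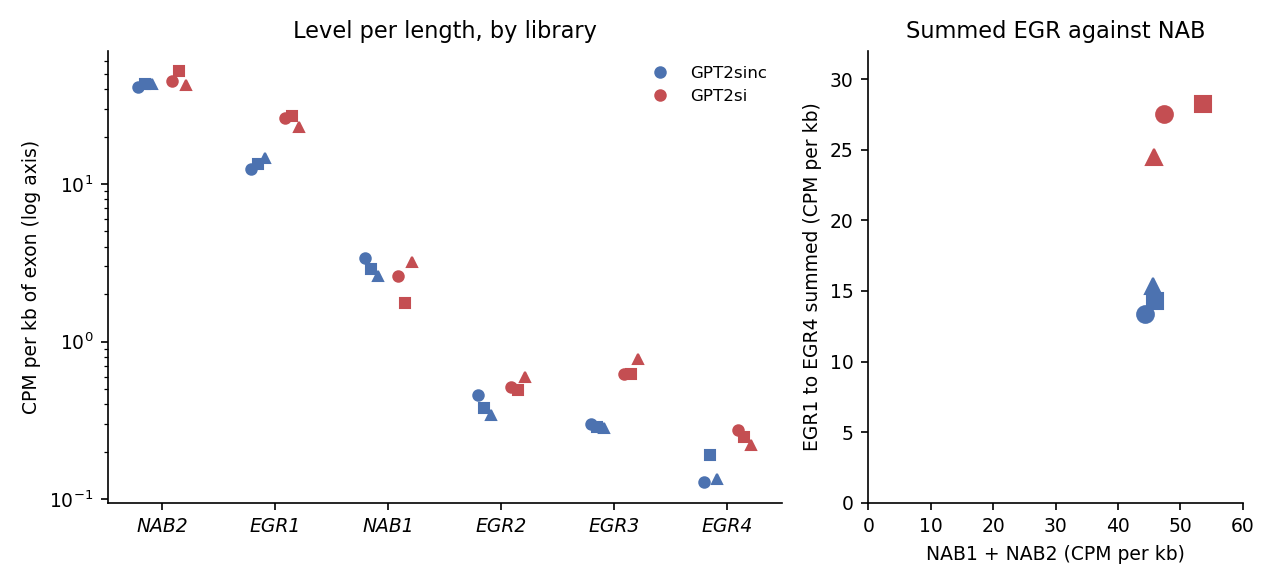
Left, level of each member in CPM per kb of exon (log axis) in each library; right, the summed level of EGR1 to EGR4 against that of NAB1 and NAB2, both in CPM per kb. Circles, squares and triangles are libraries 1, 2 and 3 of each group (blue GPT2sinc, red GPT2si), and the GPT2si libraries lie at 24.4 to 28.2 on the EGR axis against 13.4 to 15.3.

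Genes with a profile most like that of a member were sought among 10165 other protein-coding genes of at least 5 CPM, by the root mean square difference of log2 CPM centred over the 6 libraries. Nearest to EGR1 were MAT2A, which makes S-adenosylmethionine (difference 0.06), the smooth muscle actin ACTA2 (0.07) and the serine protease inhibitor SERPINB8 (0.07), where the median gene was at 0.46. MAT2A, for example, was at 89.0, 101.9 and 100.9 CPM in GPT2sinc and at 174.4, 183.7 and 165.6 CPM in GPT2si. GPT2sinc 1 was lowest and GPT2si 2 highest as for EGR1, but MAT2A was higher in GPT2sinc 2 than in GPT2sinc 3, unlike EGR1. The group difference enters this measure, so the genes nearest to EGR1 share its fold change by construction. Their log2 fold changes were 0.84 for MAT2A, 0.80 for ACTA2 and 1.01 for SERPINB8, and the likeness is a description only. Nearest to NAB2 were SLX9, PLXNB2, a plexin receptor, and WDR59, each at 0.02, with a median gene at 0.16. Nearest to NAB1 were the phosphatase gene PTPN11 (0.01), BIRC6, an inhibitor of apoptosis (0.02), and CLIP1, a microtubule plus-end protein (0.02), with a median gene at 0.35. Without GPT2si 2 the log2 fold changes of the NAB2-like genes were 0.02 to 0.04, and those of the NAB1-like genes −0.05 to −0.03. The NAB1-like genes had overlapping groups like NAB1, and adjusted p from 0.510 to 0.573 by edgeR. Unlike NAB2, PLXNB2 and WDR59 were higher in GPT2si without overlap, while the groups of SLX9 overlapped. Adjusted p of these NAB2-like genes ran from 0.447 to 0.539 by edgeR. EGR2, EGR3 and EGR4 were under 5 CPM and were not matched.

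Transcripts of the proteins that act with EGR and NAB showed small differences. Of 17 partner genes, 0 were called higher or lower by edgeR, where 0.576% and 0.841% of all tested genes were. Their median log2 fold change was 0.06 against −0.01 over all tested genes. At an unadjusted p under 0.05, 4 were higher and 0 lower, where 10.3% and 9.27% of all genes were. Groups did not overlap in 5 with GPT2si higher and in 1 with GPT2si lower (14.9% and 13.2% of all genes). DESeq2 called 1 higher and 0 lower (3.96% and 3.17% of all genes). By limma-voom 0 were called, where over all genes 66 were higher and 108 lower. HCFC1, a host cell factor that binds EGR2 and other activators, was at 303 ± 23.6 CPM in GPT2sinc and 391 ± 54.4 CPM in GPT2si (log2 fold change 0.37, SE 0.11, adjusted p = 0.121, and 0.24 without GPT2si 2). The acetyltransferase CREBBP, a coactivator of EGR1, had a log2 fold change of 0.19 (SE 0.08). CHD4, the remodeller that NAB2 recruits, was at 675 ± 40.1 against 624 ± 11.5 CPM (−0.11, SE 0.08), and its relative CHD3 at 0.03 (SE 0.08), a sign that turned with upper-quartile scaling and without GPT2si 2 (−0.02 in each).

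Genes that feed EGR transcription also differed little, apart from SRF. Of 24 genes for ERK pathway kinases, receptors, Ets factors, CREB1, SRF and its MRTF coactivators, 0 passed edgeR in either direction. Over all tested genes 0.576% were called higher and 0.841% lower. The median log2 fold change of the 24 was 0.04. At an unadjusted p under 0.05, 2 were higher and 1 lower (10.3% and 9.27% of all genes). DESeq2 called 1 higher and 0 lower (3.96% and 3.17% of all genes), and limma-voom 0 (66 and 108 over all genes). SRF, the factor of the CArG boxes printed above, had 66.3, 75.3 and 76.9 CPM in GPT2sinc and 99.3, 122.7 and 92.9 CPM in GPT2si. All GPT2si libraries lay above all GPT2sinc libraries, with GPT2si 2 highest. Its log2 fold change was 0.53 (SE 0.12, adjusted p = 0.0622 by edgeR). It was past the threshold in 4 of 14 alternatives. These were DESeq2 (adjusted p = 0.00273), the replicate block, GC and length offsets (0.00607) and the fit without GPT2si 2 (0.39, adjusted p = 0.0299). Over all genes those fits called 573, 252, 1171 and 377 higher, against 98 in the main fit. Over its 14 alternatives the adjusted p ran from 0.00273 to 0.301. The receptor gene ERBB2 had a log2 fold change of 0.26 (SE 0.11) and ERBB3 at −0.22 (SE 0.08), neither past the threshold, and the kinase gene MAP2K2 at 0.19 (SE 0.12). Without GPT2si 2, the highest library for both, ERBB2 was at 0.12 and MAP2K2 at 0.02.

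Among genes known as EGR targets the differences went both ways. Of 38 listed genes 32 were tested, 0 passed edgeR as higher and 1, NDRG1, as lower (0.576% and 0.841% of all tested genes), with 19 positive and 13 negative values and a median log2 fold change of 0.15. At an unadjusted p under 0.05, 8 were higher and 3 lower (10.3% and 9.27% of all genes). Groups did not overlap in 10 with GPT2si higher and in 5 with GPT2si lower (14.9% and 13.2% of all genes). DESeq2 called 4 and 1 (3.96% and 3.17% of all genes), and limma-voom 0 and 0 (66 and 108 over all genes). NDRG1, a stress-responsive gene that low oxygen also induces, fell from 32.8, 29.9 and 20.3 CPM in GPT2sinc to 14.8, 12.4 and 15.5 CPM in GPT2si (log2 fold change −0.96, SE 0.18, adjusted p = 0.0413, edgeR). Its GPT2sinc libraries were spread widely. The call held without GPT2si 2 and was lost with any other library left out, with no filter and by limma-voom, and over the 14 alternatives the adjusted p ran from 2.60e-05 to 0.192. TOE1, named as a target of EGR1, was at 12.0, 15.9 and 15.7 CPM against 20.9, 23.4 and 19.9 CPM (0.56, SE 0.14, adjusted p = 0.0823). The groups of TOE1 did not overlap, although it did not pass. CDKN1A, the cell cycle inhibitor p21, was at 328 ± 42.3 against 461 ± 83.4 CPM (0.49, SE 0.14, adjusted p = 0.110, and 0.32 without GPT2si 2). THBS1, thrombospondin, chosen after its values were seen, had the largest positive value of the list, 0.82 (SE 0.24, adjusted p = 0.115). Chosen likewise, ICAM1 had the most negative value, with 0 to 26 counts and no overlap of groups. ARC, CDK5R1, CCND1 and SLC4A2, chosen after their values were seen, were higher before adjustment, without overlap of groups (adjusted p from 0.113 to 0.184, edgeR). Besides NDRG1, the genes lower before adjustment were VEGFA and BCL2L11, also chosen after their values were seen. VEGFA was at 108 ± 15.1 against 82.8 ± 9.10 CPM and BCL2L11 at 8.13 ± 0.214 against 6.22 ± 0.0954 CPM, both without overlap (adjusted p = 0.134 and 0.148, edgeR). Without GPT2si 2, 2 targets were called higher and 1 lower, where 377 and 459 were over all genes.

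Other immediate early genes differed among themselves. Of 28 tested, 5 rose and 0 fell by edgeR (0.576% and 0.841% of all tested genes), and the median log2 fold change was 0.12. Before adjustment, 11 were higher and 2 lower (10.3% and 9.27% of all genes). DESeq2 called 7 higher and 1 lower (3.96% and 3.17% of all genes), and limma-voom 5 and 0 (66 and 108 over all genes). CCN2, a matricellular protein, rose from 2.07, 2.71 and 2.48 CPM to 6.88, 6.26 and 5.86 CPM (1.39, SE 0.17). The AP-1 subunit FOSL1 rose from 20.6, 23.2 and 22.7 CPM to 37.5, 41.6 and 35.3 CPM (0.78, SE 0.11). CCN1 (0.90, SE 0.14), the adhesion protein gene VCL (0.39, SE 0.07) and, chosen after its values were seen, the kinase gene PLK2 (0.77, SE 0.15) made up the rest, with adjusted p by edgeR from 0.0119 for CCN2 to 0.0476 for PLK2. Chosen after its values were seen, FOS, the classic companion of EGR1 in serum responses, was at 8.74 ± 1.67 against 7.80 ± 1.11 CPM with overlapping groups (−0.16, SE 0.18). JUN, chosen likewise, was at 1.05 ± 0.287 against 1.91 ± 0.341 CPM (0.86, SE 0.26, adjusted p = 0.127). The 2 genes lower before adjustment, also chosen after their values were seen, were NR4A1 and NR4A3, both without overlap. NR4A1 was at 14.0 ± 1.53 against 10.2 ± 0.336 CPM (adjusted p = 0.113, edgeR). NR4A3, with 0 to 15 counts, had the most negative value of the list. Of the 5 calls 0 were kept when GPT2si 1 or any GPT2sinc library was left out, fits that called 0 to 3 genes higher over the whole set. Without GPT2si 2, 7 genes of the list were called higher, where 377 were over all genes.

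Cytoskeletal targets of SRF and its MRTF coactivators were mostly higher in GPT2si. Like the other lists here, this one was chosen with earlier results of these data known, so its shares are descriptions and nothing is read from them. Of 18 genes 5 rose and 0 fell by edgeR (0.576% and 0.841% of all tested genes). All 18 had positive values, and the median log2 fold change was 0.38, against −0.01 over all tested genes. TAGLN, the actin binder transgelin, rose by 1.17 (SE 0.13), the smooth muscle actins ACTG2 by 1.13 (SE 0.18) and ACTA2 by 0.80 (SE 0.09), and VCL and the actin crosslinker FLNA (0.55, SE 0.11, chosen after its values were seen) by less. FLNA passed narrowly (adjusted p = 0.0499, edgeR). The actin genes are near-identical paralogs, so their counts are uncertain where reads could be split between ACTA2 and ACTG2. At an unadjusted p under 0.05, 13 were higher and 0 lower (10.3% and 9.27% of all genes), and groups did not overlap, with GPT2si higher, in 14 of 18 (14.9% of all genes). DESeq2 called 10 higher (3.96% of all genes) and limma-voom 4 (66 over all genes). Called as higher were 8 without GPT2si 2 and 0 without GPT2si 1 or without any one GPT2sinc library. Over all genes 377 were called higher without GPT2si 2 and 0 to 3 in those other fits. The immediate early list also holds VCL, and it shares SRF with the list of inputs.

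Zinc finger factors that bind GC boxes close to EGR sites showed differences of both signs, 9 positive and 5 negative. WT1, whose fingers read nearly the same DNA site as EGR1, was at 0 counts in all 6 libraries and so was not tested. Of 14 tested genes 0 passed edgeR in either direction (0.576% and 0.841% of all tested genes), and the median log2 fold change was 0.03. Before adjustment 0 were higher and 2 lower (10.3% and 9.27% of all genes). Groups did not overlap in 1 with GPT2si higher and in 2, KLF9 and VEZF1, with GPT2si lower (14.9% and 13.2% of all genes). DESeq2 called 0 and 0 (3.96% and 3.17% of all genes), and limma-voom 0 and 0 (66 and 108 over all genes). The pair with the smallest p was KLF9, at 11.9 ± 0.887 against 8.19 ± 2.77 CPM (−0.53, SE 0.22), and VEZF1, at 24.4 ± 1.56 against 18.6 ± 4.31 CPM (−0.39, SE 0.16). The abundant factors MAZ and SP1 had log2 fold changes of 0.14 (SE 0.11) and 0.00 (SE 0.10), with signs that turned in some alternatives. Without GPT2si 2, the lowest library for KLF9 and VEZF1, the log2 fold changes were −0.32 for KLF9, −0.23 for VEZF1, −0.01 for MAZ and 0.08 for SP1.

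**Figure D5:**
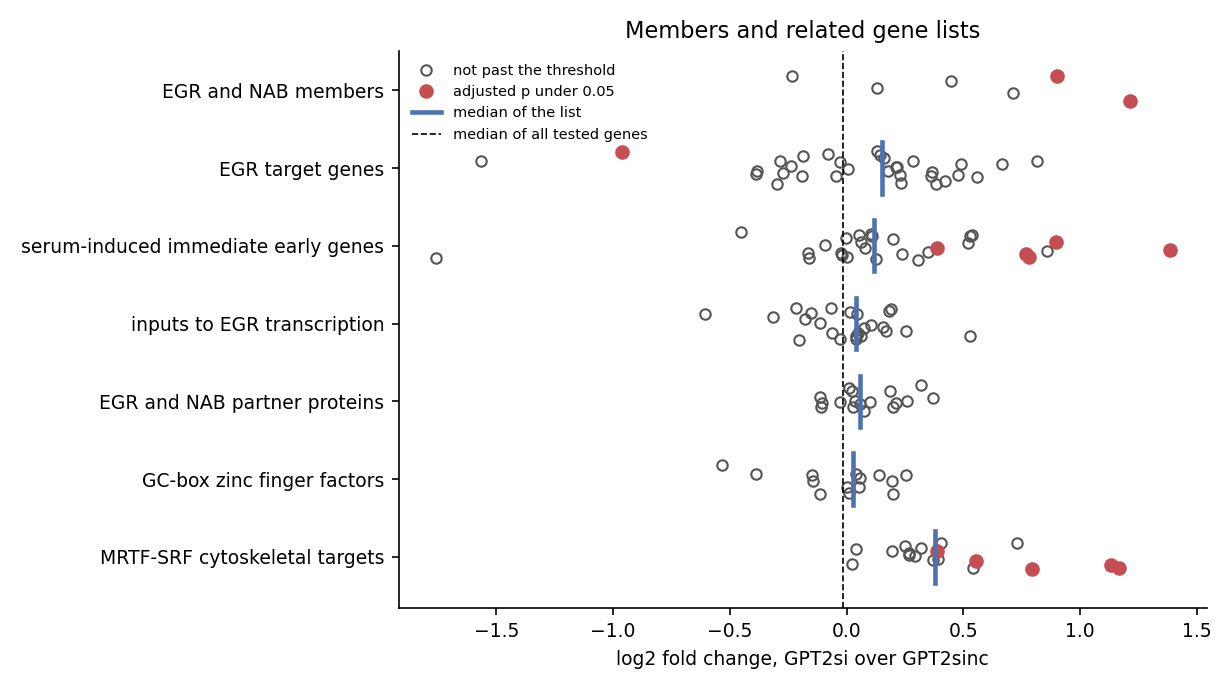
Log2 fold change of GPT2si over GPT2sinc for the 6 members and for each tested gene of 6 related lists; filled red points passed an adjusted p of 0.05 in the fit over all genes, blue bars are list medians and the dashed line is the median of all 17006 tested genes (−0.01). Besides EGR1 and EGR3, filled points stand in the immediate early list (5 higher), the SRF cytoskeletal list (5 higher) and the EGR target list (1 lower).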

How the data were processed

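Poly(A)-selected, strand-specific RNA-seq libraries of A2780 (3 GPT2si, 3 GPT2sinc, groups and numbers from the sample titles) were used. The authors deposited raw, unnormalized counts for each Ensembl gene identifier; 6 of 6 columns were matched by name. CASAVA and StringTie are named, without versions or roles, per the submitters' processing notes; the aligner, the counting program, its strand setting, the build and the annotation were not given in the sources used here.

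From the counts, TMM factors, the filterByExpr filter and the edgeR 4.0.16 quasi-likelihood test (R 4.3.3) were applied to all genes, with Benjamini-Hochberg adjustment over 17006 genes and a threshold of 0.05. SEs come from the F statistic. Alternatives were DESeq2 size factors, upper-quartile factors, no filter, a filter of 1 CPM in 3 libraries, DESeq2 1.42.0, limma-voom 3.58.1, a replicate block, loess offsets (span 0.5) on GC content and length, and leaving out each library. The SDs and SEs given are not intervals of counting error, and PCR duplicates were not examined. Levels per length used GENCODE 29 exon lengths on GRCh38, which may not be the annotation that was counted. Promoters are RefSeq windows, and the motifs were chosen with the sequences in view.

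The members and lists were chosen with earlier results of these data known. The naming rule takes GPT2, all members, genes overlapping them, up to 4 genes of each list by smallest p (where none passed, the 2 with the smallest p and the 2 most abundant), and the 3 nearest profiles of each member of at least 5 CPM. It took 42 genes, of which 13 passed. Further genes, chosen after their values were seen, are marked in the text. Results for 1 gene of the rule and 1 marker gene are not reported here. The labels do not say whether libraries of the same number were paired, and the main fit took them as unpaired.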

Additional observations from a re-analysis of the deposited data

How the results depend on the processing

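The 6 members kept their direction in each of the 14 alternatives that fitted them. EGR4 is left out by the filter of 1 CPM. EGR1 and EGR3 were the members called higher, and 1 of them was called with no low-count filter and 0 to 2 with 1 library left out. Of the 15 named genes past the threshold, all 15 kept their direction throughout, and 1 (GPT2) stayed past it without GPT2si 1 or without any one GPT2sinc library. Low counts limit EGR2, EGR3 and EGR4 most.

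Over all genes 98 were higher and 143 lower. Higher and lower counts were 17 and 27 with no filter, 573 and 459 with DESeq2, and 1171 and 822 with GC and length offsets. They were 252 and 306 with the replicate block, and with DESeq2 size factors 61 were higher. With limma-voom they were 66 and 108. With 1 library left out they ran from 0 to 377 and from 1 to 459, the highest of each without GPT2si 2. Leaving out GPT2si 1 or any one GPT2sinc library gave 0 to 3 and 1 to 4. EGR targets called higher numbered 4 with DESeq2, 3 with the replicate block, 7 with GC and length offsets and 0 to 2 with 1 library left out. EGR targets called lower numbered 0 with no filter and with limma-voom, 2 with the offsets and 0 to 1 with 1 library left out. Immediate early genes called higher numbered 2 with no filter, 8 with the offsets and 0 to 7 with 1 library left out, and called lower 1 each with DESeq2 and the offsets. Inputs to EGR transcription called higher numbered 1 each with DESeq2, the replicate block and the offsets, and 0 to 1 with 1 library left out. Partner genes called higher numbered 1 with DESeq2 and 2 with the offsets. SRF cytoskeletal targets called higher numbered 3 with DESeq2 size factors, 2 with no filter, 10 with DESeq2, 13 with the offsets and 0 to 8 with 1 library left out.

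Signs turned for CHD3, SP1 and MAZ, whose values were near 0, and for ENSG00000284052, which had 0 to 27 counts. The log2 fold change of CHD3 was −0.018 with upper-quartile factors and −0.018 to 0.062 with 1 library left out. That of SP1 was −0.041 with upper-quartile factors, −0.0043 with the 1 CPM filter, −0.00083 with limma-voom, −0.0023 with the replicate block and −0.067 to 0.079 with 1 library left out. That of MAZ ran from −0.012 to 0.211 and that of ENSG00000284052 from −0.21 to 1.54 with 1 library left out. Same-numbered libraries deviated with correlations of 0.09, 0.11 and −0.19, and not every library correlated best with its own number, so the block rests on a shared number alone. The cause of each change was not tested.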
